A study of Mus musculus with 6 samples.

Results

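The tetraspanin family was taken here as every gene of the crypt RNA-Seq table named as a *Tspan* or *Tm4sf* gene, together with *Cd9*, *Cd37*, *Cd53*, *Cd63*, *Cd81*, *Cd82*, *Cd151*, *Upk1a* and *Upk1b*. This gave 31 of the 18049 genes, of which 27 were tetraspanins and 4 were *Tm4sf* genes. The *Tm4sf* genes belong to the L6 family, whose proteins share the membrane topology of tetraspanins but are a separate family, and they are described apart. Colonic crypts came from 3 control and 3 GSK503-treated mice of a Villin-Cre model on the C57BL/6J background, with 1 total RNA library per mouse. GSK503, an inhibitor of the histone methyltransferase EZH2, was injected into the tail vein at 200 μg/kg over 9 weeks, and control mice received 20% captisol in PBS. All 6 mice carried Villin-Cre, which deletes a floxed gene in the intestinal epithelium, and a humanized *TgfβRII* allele with a poly(A) repeat. All were fed a Western-style diet from 8 weeks of age, and their age at sampling is not given in the sources used here.

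Tetraspanins are small proteins that cross the membrane several times and carry a large extracellular loop, through which they bind integrins, immunoglobulin-type receptors, proteases and each other. They gather these partners into patches of membrane known as the tetraspanin web and help move them through endosomes and onto extracellular vesicles. In the gut epithelium they are known for laminin adhesion, for company with EPCAM and claudin-7, and for the maturation of the sheddase ADAM10. *Cd37* and *Cd53* are instead leukocyte genes, and *Upk1a* and *Upk1b* encode the tetraspanin subunits of uroplakin plaques, which line the bladder.

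The deposited values are RSEM estimated counts expressed as CPM of a TMM-scaled library and are called scaled counts here. A library held between 108162848 and 135085027 estimated counts, and 3 counts were worth between 0.0228 and 0.0271 scaled counts. Differences were tested with limma after a log2(scaled count + 0.1) transform, over 16670 genes with at least 0.1 in at least 3 mice, a filter that all 31 members passed, and log2FC understates the change of low genes. The epithelial markers *Krt8*, *Epcam*, *Cldn7*, *Krt20* and *Cdh1* summed to between 8709 and 9557 scaled counts in control mice and to between 9092 and 10610 in treated mice. Treated mouse 3 stood apart from the other treated mice in smooth muscle, macrophage and plasma cell genes, with values given beside the leukocyte tetraspanins. The groups were also split by sex-linked RNA, and the labels give no sex per mouse. *Xist* lay between 0.419 and 0.936 scaled counts in control mice and between 825 and 1236 in treated mice, whereas the Y-linked *Uty* lay between 42.5 and 53.7 in control mice and between 0.67 and 1.08 in treated mice. The effects of GSK503 and of this difference cannot be told apart in any comparison below. In bulk RNA, fewer cells of a type and less RNA per cell cannot be told apart either.

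The family was dominated by a few members. Together the 31 genes held between 0.303% and 0.32% of a control library and between 0.305% and 0.339% of a treated library. *Tspan1*, *Tspan8* and *Cd9* made up between 64.1% and 65.5% of the family's scaled counts in control mice and between 65.2% and 67.4% in treated mice. Per kilobase of canonical transcript, *Tspan1* had the highest level in control mice, at 559.8 ± 23.7 scaled counts per kilobase (SD, n = 3). *Tspan8* and *Cd9* followed at 312 ± 16.2 and 306 ± 14.6 scaled counts per kilobase, and their control mice overlapped. *Cd63* stood at 110.2 ± 8.15, *Tm4sf20* at 92.2 ± 8.5, *Cd81* at 67.8 ± 1.51 and *Cd82* at 54.6 ± 3.79 scaled counts per kilobase, each apart from the next. *Tspan3*, *Cd151*, *Tspan15*, *Tspan7* and *Tspan31* lay between 24.5 and 35.6 scaled counts per kilobase, where the control mice of *Tspan3* and *Cd151* overlapped. Altogether 22 members averaged at least 1 scaled count per kilobase in control mice and 9 did not. Among the lowest members, from *Tspan4* at 0.708 down to *Tspan2* at 0.0845 scaled counts per kilobase, each overlapped the next in the order, so neighbouring ranks were not resolved.

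**Figure D1:**
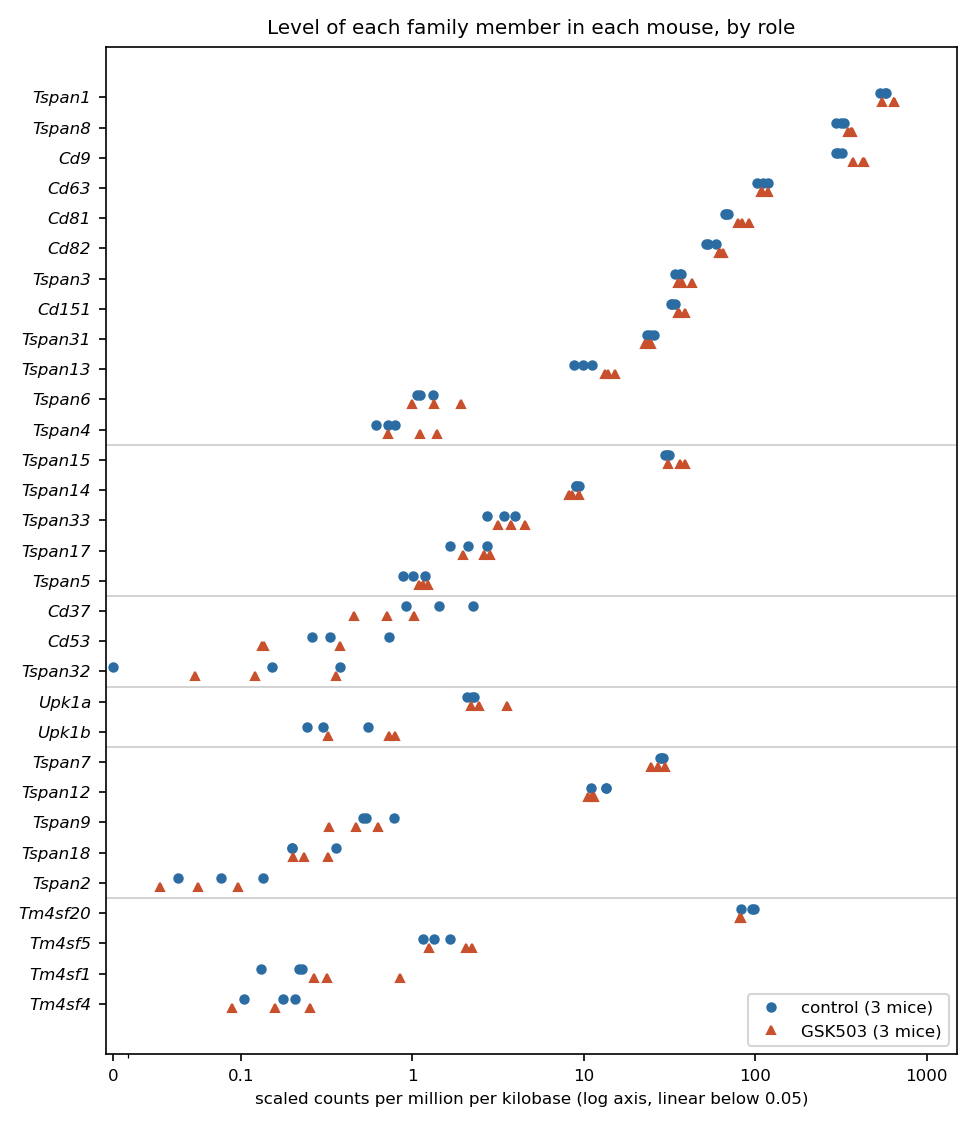
Level of each of the 31 members in each mouse, in scaled counts per kilobase of canonical transcript (log axis, linear below 0.05), with circles for 3 control mice and triangles for 3 GSK503-treated mice, and lines between roles (from the top, web and vesicle tetraspanins, TspanC8, leukocyte, uroplakin, other tetraspanins and L6 family). *Tspan1*, *Tspan8* and *Cd9* have the highest levels, and *Tspan2*, *Tm4sf4* and *Tspan32* are among the lowest.

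No member reached an adjusted p below 0.05 with limma, in either direction, where 0.498% of all genes tested were called higher and 0.144% lower. With limma-voom the count was also 0. At an adjusted p below 0.1, 3 of the 31 members were higher in GSK503-treated mice, namely *Tspan13*, *Cd9* and *Cd81*, and none was lower, against 1.41% of all genes called higher and 0.558% called lower. At an unadjusted p below 0.05, 8 members were higher and 1 was lower, against 7.06% and 6.27% of all genes. The groups did not overlap for 8 members, of which 7 were higher with GSK503 (9.84% of all genes) and 1 was lower (9.22% of all genes). At an adjusted p below 0.1 the count of higher members was 0 without control mouse 1, without control mouse 3 or without treated mouse 2. It was 1 without control mouse 2 or treated mouse 1, and 3 without treated mouse 3, namely *Tspan13*, *Cd9* and *Tspan15*. The count of all genes called higher also moved with the mouse left out, as given in the last section. Without limma's intensity trend no member was higher at an adjusted p below 0.1, where 21 of all genes were, against 235 with it. The adjusted p from limma was then 0.262 for *Tspan13*, 0.261 for *Cd9* and 0.298 for *Cd81*. The log2FC was above 0 for 21 members, with a median over the 31 of 0.18, while it was above 0 for 48.9% of all genes, with a median of -0.01. Library-size scaling, which takes out the authors' TMM factors, moved the median log2FC of all genes to -0.12. With it 1 member was higher and 1 was lower at an adjusted p below 0.1, where 221 of all genes were higher and 795 lower. With the same scaling 5 members lay apart in the higher direction and 4 in the lower. The share of all genes lying apart with that scaling was not counted.

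**Figure D2:**
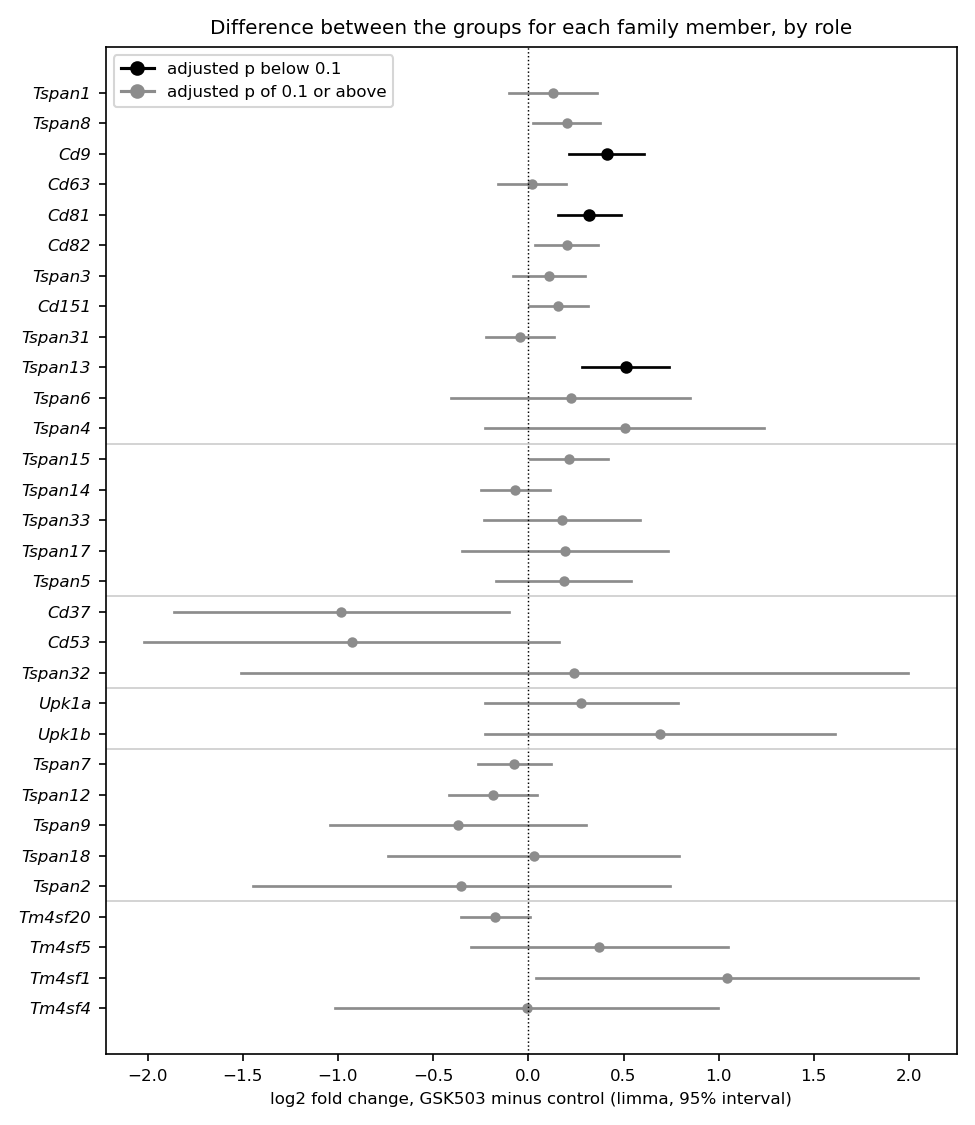
The log2FC of each of the 31 members (GSK503 minus control, limma, 3 mice against 3) with its 95% interval, ordered by role as in the plot of levels; black marks an adjusted p below 0.1. *Tspan13*, *Cd9* and *Cd81* are the black points, between 0.32 and 0.51, and the intervals of low members such as *Tspan32* and *Tspan2* are wide.

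The tetraspanins grouped here under the web and vesicles held all 3 members with an adjusted p below 0.1. The roles are those of this report, whose lists were chosen with earlier results of these data known, so the grouping is no independent result. Of the 12 genes in this role, 11 had a higher mean in treated mice, against 48.9% of all genes. Groups did not overlap for 6, all of them higher, against 9.84% of all genes, and the median log2FC was 0.20. *Tspan13*, known as a modulator of voltage-gated calcium channels, had 53.0, 59.9 and 46.8 scaled counts in control mice, listed here and below from mouse 1 to mouse 3, and 71.6, 81.5 and 73.9 in treated mice. The groups were apart, with the treated mice higher. The log2FC of *Tspan13* was 0.51 (95% interval 0.28 to 0.74, adjusted p = 0.0598 from limma). *Cd9*, a broadly expressed web organizer that binds integrins and EWI proteins and marks extracellular vesicles, had 409.7, 374 and 384 scaled counts in control mice and 469.9, 538 and 546 in treated mice. The lowest treated mouse was again above the highest control mouse. Its log2FC was 0.41 (95% interval 0.22 to 0.61, adjusted p = 0.0741 from limma).

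*Cd81*, a partner of EWI proteins and integrins, had 104, 102 and 107 scaled counts in control mice and 123, 129 and 141 in treated mice. The control mice were close together, and all treated mice were above them. The log2FC of *Cd81* was 0.32 (95% interval 0.15 to 0.49, adjusted p = 0.0964 from limma). With library-size scaling, *Tspan13* had an adjusted p of 0.076, *Cd9* one of 0.107 and *Cd81* one of 0.183, each still with a higher mean in treated mice. When 1 mouse at a time was left out, the adjusted p of *Tspan13* lay between 0.0679 and 0.285, that of *Cd9* between 0.0866 and 0.352 and that of *Cd81* between 0.126 and 0.352, the highest in each case without treated mouse 2. Goblet cell markers also differed between the groups. The 7 markers *Fcgbp*, *Spink4*, *Agr2*, *Clca1*, *Tff3*, *Zg16* and *Spdef* summed to between 10750 and 19100 scaled counts in control mice and to between 33190 and 51490 in treated mice, with 4 of 7 called higher at an adjusted p below 0.05 and most of the sum from *Clca1* and *Fcgbp*. The 5 tuft cell markers summed to between 26.4 and 40.9 and to between 50.5 and 59.1 (2 higher at an adjusted p below 0.1), and the 6 enteroendocrine markers to between 158 and 199.6 and to between 103 and 135 (2 lower at an adjusted p below 0.05). Most of the enteroendocrine sum came from *Chgb* and *Chga*. The groups overlapped for *Pyy*, *Cck* and *Sct*, and *Sct* had a higher mean in treated mice (log2FC 0.84). Absorptive markers summed to between 3238 and 3264 in control mice and to between 2181 and 5499 in treated mice, with *Car1* the largest part in every mouse. The part of these cells in the values of *Tspan13*, *Cd9* and *Cd81* was not tested.

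The other web members with separated groups had smaller differences. *Tspan8*, a vesicle and adhesion tetraspanin of the gut epithelium, had 499, 478 and 449 scaled counts in control mice and 558, 549.6 and 531 in treated mice. Its log2FC was 0.20 (95% interval 0.03 to 0.38, adjusted p = 0.308 from limma). *Cd82*, known as a suppressor of metastasis, had 107, 96.8 and 94.4 scaled counts in control mice and 113, 118 and 112 in treated mice. Its log2FC was 0.20 (95% interval 0.03 to 0.37, adjusted p = 0.285 from limma). Both genes had treated mice just above the highest control mouse. *Cd151*, the partner of laminin-binding integrins, had 96.2, 101 and 97.4 scaled counts in control mice and 107, 115 and 106 in treated mice. The groups did not overlap, and the log2FC of 0.16 had a 95% interval of 0.00 to 0.31 (adjusted p = 0.37 from limma). With library-size scaling the log2FC of *Cd151* fell to 0.04, that of *Cd82* to 0.09 and that of *Tspan8* to 0.09.

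The most abundant member and the main endosomal member did not separate the groups. *Tspan1* had 1154, 1129 and 1063 scaled counts in control mice and 1094, 1282 and 1289.9 in treated mice, so that treated mouse 1 lay among the control mice. Its log2FC was 0.13 (95% interval -0.10 to 0.36, adjusted p = 0.637 from limma). *Cd63*, the classic marker of late endosomes and exosomes, had 163, 153 and 141 scaled counts in control mice and 149, 163 and 151 in treated mice. The groups overlapped over nearly their whole range, and the log2FC was 0.02 with a 95% interval of -0.16 to 0.20. *Tspan3* had 124, 124 and 115 scaled counts in control mice and 127, 145 and 119.8 in treated mice. Its groups overlapped through treated mouse 3, with a log2FC of 0.11 and a 95% interval of -0.08 to 0.30. *Tspan31*, at 38.1 to 41.9 scaled counts in control mice and 37.2 to 40.2 in treated mice, overlapped too, with a log2FC of -0.04 and a 95% interval of -0.22 to 0.14. *Tspan4* (0.706 to 0.917 scaled counts in control mice and 0.835 to 1.6 in treated mice) was low, and its log2FC interval of -0.23 to 1.24 was wide. The X-linked *Tspan6* had 1.96, 2.33 and 1.89 scaled counts in control mice and 1.75, 2.35 and 3.39 in treated mice, with a log2FC of 0.22 (95% interval -0.41 to 0.85).

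**Figure D3:**
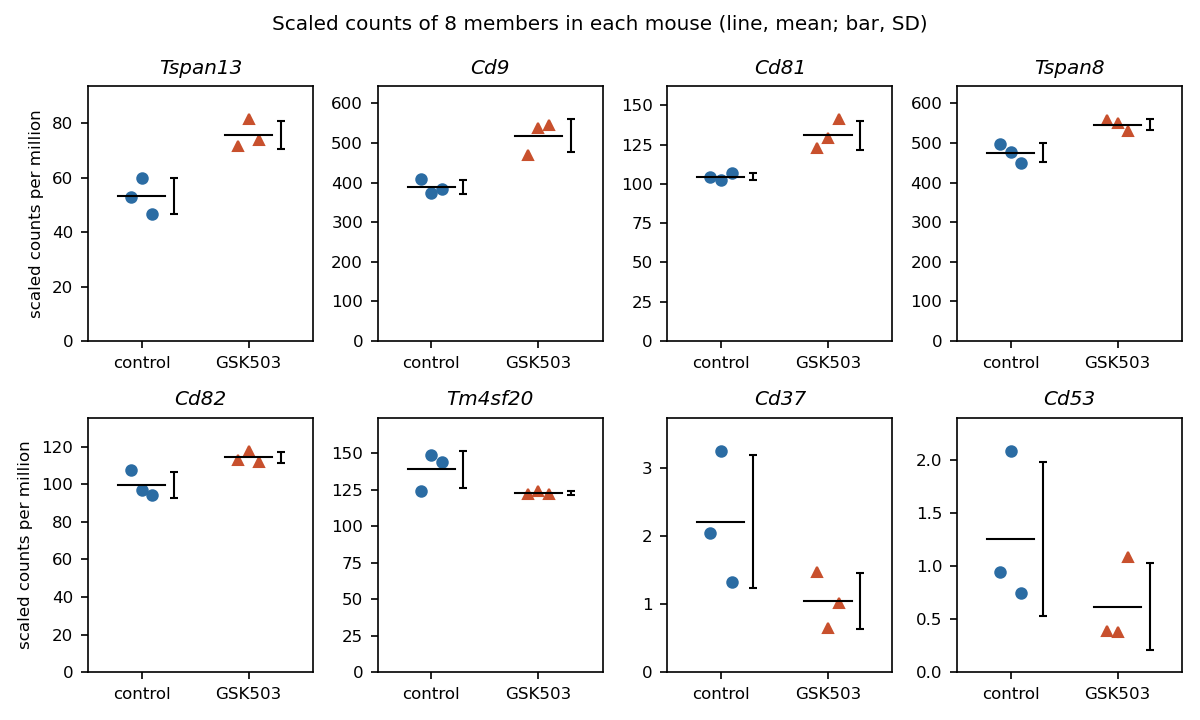
Scaled counts of 8 members in each of 3 control mice (circles) and 3 GSK503-treated mice (triangles), on linear axes from 0, with the mean as a line and the SD as a bar. Treated mice lie above control mice for *Tspan13*, *Cd9*, *Cd81*, *Tspan8* and *Cd82* and just below them for *Tm4sf20*, and the groups overlap for *Cd37* and *Cd53*.

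The sequences just upstream of the start of *Tspan13*, *Cd9* and *Cd81* are shown because these were the members with an adjusted p below 0.1, beside *Tspan8* as an abundant member that did not reach it. EZH2 acts within a complex that in mammals is known to sit at promoters rich in unmethylated CG dinucleotides, so these are in capitals. Each run is the 150 bases before the start of the canonical transcript on GRCm39, read 5′ to 3′ on the gene's strand. *Tspan13* lies on the minus strand (chr12:36092716-36092865), as does *Cd9* (chr6:125471779-125471928), and *Cd81* (chr7:142606316-142606465) and *Tspan8* (chr10:115653039-115653188) lie on the plus strand.
Tspan13: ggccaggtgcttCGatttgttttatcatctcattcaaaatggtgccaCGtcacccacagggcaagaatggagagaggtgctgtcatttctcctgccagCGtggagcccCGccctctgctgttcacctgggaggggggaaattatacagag
Cd9: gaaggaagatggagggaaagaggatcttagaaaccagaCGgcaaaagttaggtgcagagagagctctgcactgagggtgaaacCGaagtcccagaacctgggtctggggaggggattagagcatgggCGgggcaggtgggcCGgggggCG
Cd81: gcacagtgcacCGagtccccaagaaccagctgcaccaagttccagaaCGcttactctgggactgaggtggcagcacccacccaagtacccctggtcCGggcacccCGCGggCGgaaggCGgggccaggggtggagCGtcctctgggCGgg
Tspan8: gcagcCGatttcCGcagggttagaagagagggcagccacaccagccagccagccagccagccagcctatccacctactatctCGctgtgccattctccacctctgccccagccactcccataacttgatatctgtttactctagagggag
These runs held 4, 5, 9 and 3 CG dinucleotides in the order printed. Over a 300-base window, from 250 bases before the start to 50 after it, *Tspan13* had 9, *Cd9* 20, *Cd81* 17 and *Tspan8* 5 CG dinucleotides. The members had a median of 9 and ranged from 2 in *Cd53* to 42 in *Tspan5*, whereas the 14663 tested protein-coding genes had a median of 16. At least 15 were found in 14 of the 31 members (45.2%) and in 53.7% of all windows. Fewer than 5 were found in 7 members (22.6%) and in 14.3% of all windows, the 7 being *Cd53*, *Cd63*, *Tm4sf20*, *Tm4sf4*, *Tspan32*, *Upk1a* and *Upk1b*. The letters TATAAA, searched on both strands, occurred in the windows of *Cd81* and *Tspan12* alone (6.45% of members, 9.23% of all windows). The members with an adjusted p below 0.1 thus had windows on both sides of the median of all genes.

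**Figure D4:**
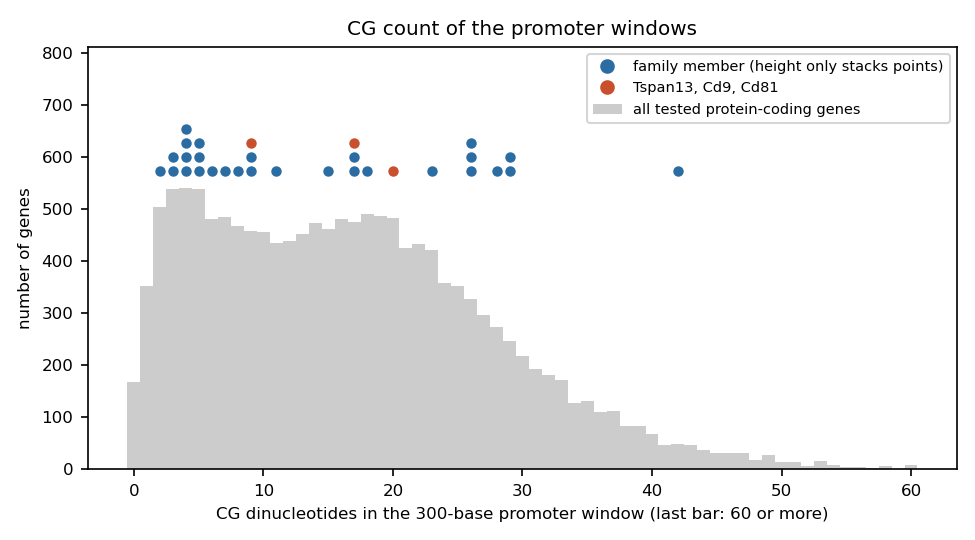
Number of CG dinucleotides in the 300-base promoter window (x axis) of 14663 tested protein-coding genes (grey bars, y axis, number of genes) and of the 31 members (points, whose height only stacks them). *Tspan13*, *Cd9* and *Cd81*, the members with an adjusted p below 0.1, lie at 9, 20 and 17.

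The TspanC8 tetraspanins bind ADAM10, carry it out of the endoplasmic reticulum and steer which substrates it cuts, Notch among them. All 5 members here had overlapping groups. *Tspan15*, the highest of them per kilobase, had 111, 108 and 115 scaled counts in control mice and 133, 143 and 113 in treated mice. Treated mouse 3 lay within the control mice, and the difference on the log2 scale was 0.22 (95% interval 0.01 to 0.42, adjusted p = 0.35 from limma). Without treated mouse 3, the log2FC of *Tspan15* was 0.31 with an adjusted p of 0.0925 from limma. *Tspan14*, at 45.3 to 47.2 scaled counts in control mice and 41.2 to 47.4 in treated mice, had a log2FC of -0.07 (95% interval -0.25 to 0.11). *Tspan33* (7.69 to 11.3 and 8.96 to 12.8 scaled counts), *Tspan5* (5.85 to 7.88 and 7.27 to 8.20) and *Tspan17* (2.68 to 4.36 and 3.15 to 4.52) each had a log2FC between 0.18 and 0.19, with adjusted p between 0.656 and 0.785. Their partner *Adam10* had 129, 137 and 175 scaled counts in control mice and 129, 116 and 108 in treated mice, a log2FC of -0.31 (adjusted p = 0.291 from limma). Of 8 genes listed for ADAM10 and its substrates, none passed an adjusted p of 0.1. The groups did not overlap for the Notch receptors *Notch1* and *Notch2*, which were lower with GSK503 at a log2FC of -0.27 and -0.40 (adjusted p = 0.142 and 0.103 from limma). Of all genes tested, 9.22% lay apart in the lower direction. The median log2FC of the 8 was -0.03, and it was above 0 for 3 of them.

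The leukocyte tetraspanins were low in these epithelial libraries. *Cd37* averaged 1.54, *Cd53* 0.44 and *Tspan32* 0.176 scaled counts per kilobase in control mice. *Cd37*, a regulator of B cell survival and signalling, had 2.05, 3.25 and 1.32 scaled counts in control mice and 1.47, 0.653 and 1.02 in treated mice. The groups overlapped through control mouse 3 and treated mouse 1, and the log2FC was -0.98 (95% interval -1.86 to -0.10, adjusted p = 0.323 from limma). *Cd53*, found on nearly all leukocytes, had 0.944, 2.09 and 0.748 scaled counts in control mice and 0.39, 0.382 and 1.09 in treated mice. Treated mouse 3 lay among the control mice, and the log2FC was -0.93 (95% interval -2.02 to 0.16, adjusted p = 0.457 from limma). Without treated mouse 3 the log2FC of *Cd53* was -1.36 (adjusted p = 0.195 from limma), and without control mouse 2 it was -0.52 (adjusted p = 0.706 from limma). *Tspan32*, a lymphoid tetraspanin, was at 0 in control mouse 1 and between 0.102 and 0.705 scaled counts in the other 5 mice, and its direction changed with the mouse left out.

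Leukocyte and stromal markers also varied between these mice. The leukocyte genes *Ptprc*, *Laptm5*, *Coro1a*, *Cd52* and *Arhgdib* summed to 46.6, 44.5 and 34.4 scaled counts in control mice and to 25.5, 28.7 and 34.1 in treated mice, and *Laptm5* had an adjusted p of 0.069 from limma. The 7 B cell and plasma cell genes summed to 34.0, 77.2 and 22.4 scaled counts in control mice and to 3.86, 2.04 and 61.8 in treated mice. *Jchain* made up most of this sum in every control mouse and in treated mouse 3, at 23.6, 48.6 and 18.2 scaled counts in control mice and 0.839, 0.844 and 57.9 in treated mice. All 7 genes had a log2FC below 0. *Ms4a1* had 1.42, 3.21 and 0.449 scaled counts in control mice and 0.195, 0.0637 and 0.0915 in treated mice (adjusted p = 0.0875 from limma). Its groups did not overlap, nor did those of *Cd79b* (adjusted p = 0.177 from limma), where 9.22% of all genes lay apart in this direction. The 8 smooth muscle genes summed to 22.7, 94.1 and 49.6 scaled counts in control mice and to 5.11, 4.76 and 127 in treated mice, and the 8 macrophage genes to 29.2, 49.4 and 29.0 and to 11.7, 7.88 and 66.4. Control mouse 2 and treated mouse 3 were thus the highest of their groups for the B cell, smooth muscle and macrophage lists, as they were for *Cd53* and *Tspan32*. The leukocyte list was instead highest in control mouse 1 among the controls, and *Cd37* was highest in treated mouse 1 among the treated mice. The part of these cells in the values of *Cd37*, *Cd53* and *Tspan32* was not tested. T cell genes summed to 18.6, 11.7 and 13.4 scaled counts in control mice and to 11.0, 13.6 and 14.3 in treated mice, with control mouse 2 the lowest control. *Cr2*, a complement receptor of B cells, had 0.571, 4.42 and 0.74 scaled counts in control mice and 0.559, 0.223 and 0.133 in treated mice. The groups were apart by the narrow gap between control mouse 1 and treated mouse 1, with a log2FC of -1.89 (adjusted p = 0.289 from limma) that was -1.03 without control mouse 2.

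The uroplakin tetraspanins were present at a low level in the crypts. *Upk1b* had 1.05, 1.94 and 0.85 scaled counts in control mice and 2.54, 2.78 and 1.13 in treated mice. Treated mouse 3 lay among the control mice, and the log2FC was 0.69 (95% interval -0.23 to 1.61, adjusted p = 0.509 from limma). *Upk1a* had 3.27, 3.18 and 2.96 scaled counts in control mice and 3.50, 5.08 and 3.13 in treated mice, with a log2FC of 0.28 (95% interval -0.23 to 0.79). *Upk3b*, a uroplakin that pairs with UPK1B, had 1.3, 1.77 and 0.944 scaled counts in control mice and 2.73, 4.30 and 2.37 in treated mice. These groups did not overlap, with a log2FC of 1.16 (adjusted p = 0.143 from limma). *Upk2* and *Upk3a*, the defining bladder partners, were not analysed here. Of the basal urothelial markers listed, *Krt14* had 0.792, 0.57 and 0.716 scaled counts in control mice and 0.865, 1.77 and 1.11 in treated mice. Its groups did not overlap, with a log2FC of 0.72 (adjusted p = 0.415 from limma), where 9.84% of all genes lay apart in this direction. *Trp63* averaged 0.0324 in control mice and 0.13 in treated mice, did not pass the filter and was not tested. *Krt5* was not analysed here.

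Among the remaining tetraspanins no groups were separated. *Tspan12*, which strengthens Norrin signalling through the receptor FZD4, had 28.4, 34.9 and 35.1 scaled counts in control mice and 28.8, 29.7 and 27.5 in treated mice. Only control mouse 1 reached into the treated range, and the log2FC was -0.18 (95% interval -0.42 to 0.05, adjusted p = 0.485 from limma). Its partners *Fzd4* and *Lrp5* had a log2FC of -0.08 and -0.05, and *Ndp* was not analysed here. *Lrp6*, a further Norrin coreceptor, was lower with GSK503 without overlap, at a log2FC of -0.28 (adjusted p = 0.267 from limma). The X-linked *Tspan7* had 48.1, 49.4 and 50.4 scaled counts in control mice and 42.9, 46.6 and 51.4 in treated mice, a log2FC of -0.07 (95% interval -0.27 to 0.12). Both X-linked members therefore overlapped between groups that differed in *Xist*. *Tspan9* lay between 2.02 and 3.10 scaled counts in control mice and between 1.3 and 2.48 in treated mice, *Tspan18* between 0.841 and 1.52 and between 0.856 and 1.36, and *Tspan2*, known from oligodendrocytes and smooth muscle, between 0.199 and 0.632 and between 0.144 and 0.449. Their intervals spanned from -1.45 to 0.79 in all.

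The L6 family members went separate ways. *Tm4sf20*, an intestinal gene, had 124, 149 and 144 scaled counts in control mice and 122, 124 and 122 in treated mice. It was the 1 member with treated mice below the whole control range, by a narrow margin from control mouse 1, and the log2FC was -0.17 (95% interval -0.36 to 0.01, adjusted p = 0.40 from limma). With library-size scaling its log2FC was -0.29 and its adjusted p 0.0967 from limma. *Tm4sf1*, known from endothelium and from carcinomas, had 0.731, 0.696 and 0.417 scaled counts in control mice and 1.02, 0.852 and 2.72 in treated mice. All treated mice lay above the control mice, and the log2FC of 1.04 had a 95% interval of 0.04 to 2.05 (adjusted p = 0.355 from limma). Without treated mouse 3 the log2FC of *Tm4sf1* was 0.56. The 7 endothelial markers summed to between 5.05 and 7.40 scaled counts in control mice and to 2.26, 2.40 and 13.4 in treated mice, highest in the same mouse, and their part in *Tm4sf1* was not tested. *Tm4sf5* (1.16 to 1.65 and 1.26 to 2.24 scaled counts) and *Tm4sf4* (0.167 to 0.335 and 0.143 to 0.408) overlapped between the groups.

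Some members lie side by side in the genome. On chromosome 7 of GRCm39, *Cd151* and *Tspan4* are 2.57 kb apart, and *Tspan32* and *Cd81* are 32.9 kb apart. In control mice *Cd151* averaged 32.9 scaled counts per kilobase and *Tspan4* 0.708. *Cd81*, with 67.8 scaled counts per kilobase, stands beside *Tspan32*, with 0.176. On chromosome 2, *Tspan18* and *Cd82* are 84.6 kb apart, with a log2FC of 0.03 and 0.20, and on chromosome 3, *Tm4sf1* and *Tm4sf4* are 85.3 kb apart, with a log2FC of 1.04 and -0.01. Exons of 16 members overlap an annotated gene on the opposite strand. *Cd9*, *Cd81* and *Tspan13* are among them, the library kit keeps strand, and the strand setting of the counting is not given in the sources used here.

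Of the partner genes listed for the web, only *Rab27a* and *Rab27b* passed an adjusted p of 0.05. These GTPases dock secretory organelles and vesicle-bearing endosomes at the plasma membrane. *Rab27a* rose from 33.7, 31.3 and 29.0 scaled counts in control mice to 46.3, 55.7 and 49.6 in treated mice, and the log2FC was 0.69 ± 0.10 (SE, adjusted p = 0.0157 from limma). *Rab27b* rose from 48.0, 45.1 and 39.3 scaled counts to 65.1, 72.3 and 69.9, and the log2FC was 0.65 ± 0.09 (SE, adjusted p = 0.0157 from limma). Both genes were higher in every treated mouse, by more than the spread within either group. *Rab27a* had an adjusted p above 0.05 without control mouse 2 (0.0679), control mouse 3 (0.0537) or treated mouse 2 (0.1001 from limma). *Rab27b* did so without control mouse 2 (0.0654) or treated mouse 2 (0.118 from limma). Without limma's intensity trend the adjusted p was 0.191 for *Rab27a* and 0.194 for *Rab27b*. They were 2 of 12 genes listed for exosomes and multivesicular bodies, and the other 10, which include the syntenin gene *Sdcbp* with a log2FC of 0.09, had an adjusted p above 0.1. The median log2FC of the 12 was 0.01. Like the goblet markers, whose sums did not overlap between the groups, *Rab27a* and *Rab27b* are active in secretory cells, and the part of goblet cells in their values was not tested.

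None of the 5 laminin-binding integrin genes passed an adjusted p of 0.1. The integrin chain *Itga6*, which CD151 binds, was higher in every treated mouse, with 381, 427 and 426 scaled counts in control mice and 490.3, 517 and 502 in treated mice (log2FC 0.29, adjusted p = 0.143 from limma). None of 10 other web partners passed either, *Epcam* and *Cldn7* having a log2FC of 0.04 and 0.02, and *Egfr* lay lower in every treated mouse with a log2FC of -0.15 (adjusted p = 0.442 from limma). Of 6 palmitoyl transferase genes, whose enzymes anchor tetraspanins in the web, none passed, and the groups did not overlap for *Zdhhc3* and *Zdhhc20*, with a log2FC of -0.17 and -0.28 (adjusted p = 0.394 and 0.174 from limma). Of all genes, 9.22% lay apart in this direction, and the median log2FC of the 6 was -0.13. *Rom1*, a tetraspanin of the photoreceptor, had a log2FC of 0.46 (adjusted p = 0.48 from limma).

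**Figure D5:**
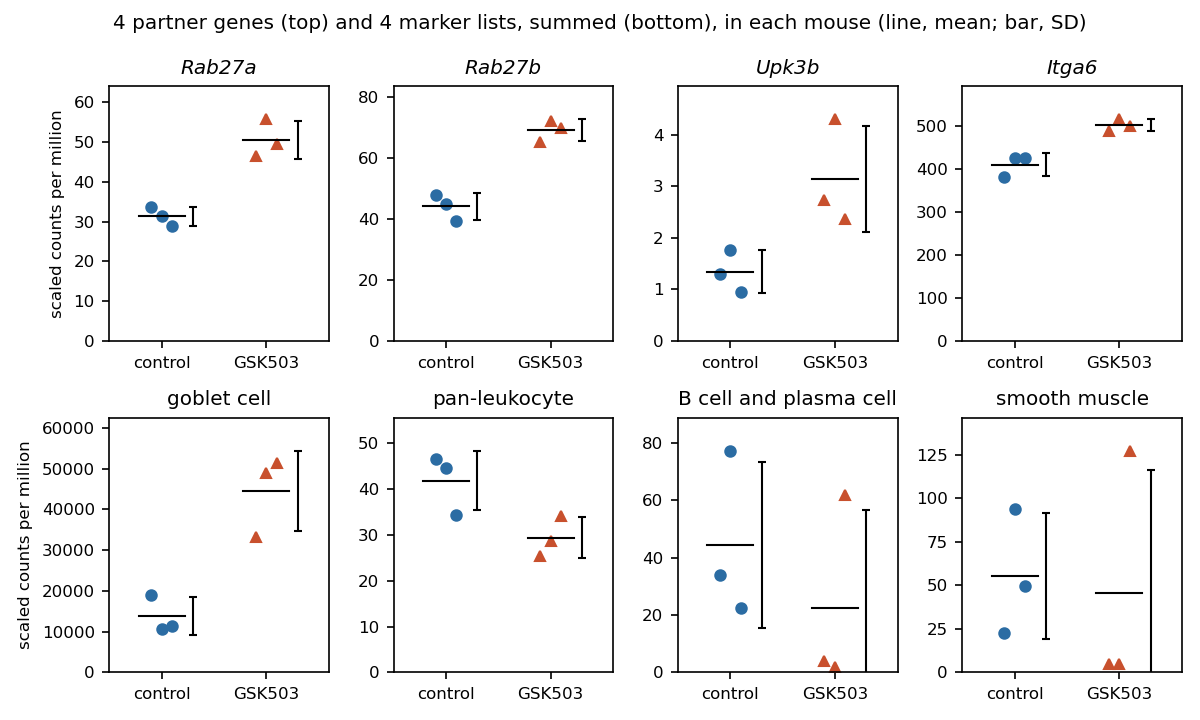
Scaled counts in each of 3 control mice (circles) and 3 GSK503-treated mice (triangles) for 4 partner genes in the top row and for the sums of 4 marker lists in the bottom row, on linear axes from 0, with the mean as a line and the SD as a bar, cut off at 0 where it would pass it. *Rab27a*, *Rab27b*, *Upk3b*, *Itga6* and the goblet list separate the groups upward, while treated mouse 3 stands apart from the other treated mice in the B cell and plasma cell and the smooth muscle lists.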

How the data were processed

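Crypt RNA of 6 mice, 3 given vehicle and 3 given GSK503, was sequenced with 1 library per mouse, grouped by the sample labels. The authors aligned reads to GRCm39 with STAR (v2.7.9a), estimated counts per gene with RSEM (v1.3.1), scaled them with edgeR's TMM method and deposited the scaled signal, of which between 75.1% and 78% of the values above 0 in a library were whole multiples (within 0.01) of 1 count. As no raw counts were used, limma 3.58.1 in R 4.3.3, with an intensity trend, was fitted to log2(value + 0.1) of all 16670 genes passing the filter, with Benjamini-Hochberg adjustment, and the fit was tested on simulated data. Transcript lengths, starts and neighbours came from GENCODE vM39 on GRCm39, which all 31 members matched. The members, lists and tests were chosen with earlier results of these data known. Values per mouse were given for members with an adjusted p below 0.1, the 12 smallest p, the 8 highest per kilobase, *Cd81*, *Cd151*, *Cd37* and X-linked members, and the rest by range, except that *Upk1a* and *Upk1b* were also given per mouse, a choice made after their values were seen. Partner genes were named at an adjusted p below 0.1 or without overlap, and *Adam10*, *Epcam*, *Cldn7*, *Fzd4*, *Lrp5* and *Sdcbp* were added after their values were seen. The fit had no replicate block. Other scalings, pseudocounts, filters, variance models (among them limma-voom on recovered counts), the block and each mouse left out were tried as alternatives. Counting intervals and floors cover counting error only, and 3 mice against 3 cannot give an exact permutation p under 0.1. *Tspan10*, *Tspan11*, *Tspan19* and *Tm4sf19* were not analysed here, and the floxed gene and 1 listed partner gene are not reported here. Python 3.11.15, numpy 2.4.6, pandas 2.3.3 and matplotlib 3.10.9 were used.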

Additional observations from a re-analysis of the deposited data

How the results depend on the processing

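Over 17 alternatives, 502 of 518 log2FC values of members kept their direction and their side of an adjusted p of 0.05. Much of this count was fixed in advance. Other filters, no intensity trend and robust empirical Bayes cannot move the log2FC of a gene, and no member was below 0.05 in the main fit. With robust empirical Bayes 1 member, *Tspan13*, passed 0.05 (adjusted p = 0.0465 from limma). At an adjusted p below 0.1 the count of 3 higher members became 1 with library-size scaling, where *Tm4sf20* was 1 lower member, 2 with a pseudocount of 0.03, without a filter or with limma-voom, and 0 without the intensity trend. Library-size scaling also gave 4 members below all control mice. With each mouse left out, members higher at 0.1 numbered between 0 and 3, members apart between 7 and 12 higher and between 1 and 3 lower. Leaving out a mouse can only keep or add groups that lie apart. The share of all genes lying apart was not counted for these fits or for library-size scaling. The replicate numbers did not pair the mice (correlations of same-numbered deviations between -0.126 and 0.0322). With the replicate block 1 member was higher at 0.1, and 23 genes were higher and 10 lower at 0.05. For all genes at 0.05, library-size scaling gave 178 lower, no filter 12 lower and no intensity trend 9 higher and 7 lower, and each mouse left out gave between 20 and 116 higher and between 7 and 100 lower. At 0.1, library-size scaling gave 795 lower, no filter 57 lower, no intensity trend 21 higher and 9 lower, and the replicate block 73 higher and 21 lower, while each mouse left out gave between 37 and 351 higher and between 15 and 247 lower. The cause was not tested. *Rab27a* and *Rab27b* had adjusted p of 0.191 and 0.194 without the intensity trend, of 0.076 and 0.0788 with the replicate block, and up to 0.1001 and 0.118 with a mouse left out. Direction reversed with library-size scaling for *Cd63* (log2FC -0.094), *Tspan18* (-0.077) and *Tspan3* (-0.0052) and with a pseudocount of 1 for *Tm4sf4* (0.0046). With each mouse left out the log2FC ranged from -0.035 to 0.072 for *Cd63*, -0.27 to 0.26 for *Tm4sf4*, -0.15 to 0.29 for *Tspan18*, -0.58 to 0.92 for *Tspan32* and -0.016 to 0.44 for *Tspan6*. The low member *Tspan32* had 0 scaled counts in control mouse 1, whose library held 129101059 estimated counts. It had 0.705 in control mouse 2, whose library was the smallest, at 108162848. The part of depth in the values of low members was not tested.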
